A study of Mus musculus with 12 samples.

Results

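The response of mouse cells to uniSTING mRNA was set beside the response to extracellular vesicles from uniSTING-treated tumour cells, in the libraries that carry the DC2.4 label. For each gene the quantity of interest was the difference of responses: the log2 fold change of uniSTING mRNA against Mock mRNA, minus the log2 fold change of EXOuniSTING against EXOmock. A difference above 0 means a response further upward to the mRNA, and one below 0 a response further upward to the vesicles. This comparison used 8 of the 12 RNA-seq libraries of the series, 2 per group in 4 groups, each a wild-type (WT) culture of the line named DC2.4, a line of immortalised mouse dendritic cells. In the mRNA pair, cells received uniSTING mRNA, a STING mimic, or an mRNA for EGFP as the Mock control, carried by a transfection reagent or by SS-OP lipid nanoparticles. The labels do not tie a carrier to a library, and no time after delivery is stated for this pair. In the vesicle pair, cells were incubated for 24 h with vesicles collected from 4T1 breast tumour cells that had been treated with uniSTING (EXOuniSTING) or with Mock (EXOmock). The study asked with the first pair how uniSTING acts on type I interferon signalling, and with the second which genes of DC2.4 cells the miRNAs in the vesicles regulate.

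The marker genes went against the shared label before any treatment was considered. The 22 epithelial markers summed to a mean of 5850 CPM (counts scaled to a common library total) in Mock mRNA and 6140 in uniSTING mRNA, but to 8.74 in EXOmock and 9.27 in EXOuniSTING. The 25 leukocyte and myeloid markers summed to 163 and 190 CPM in the mRNA pair and to 16700 and 14000 in the vesicle pair. Epcam, an epithelial adhesion molecule, averaged 287 CPM in Mock mRNA against 0.107 in EXOmock, whereas Ptprc, the leukocyte antigen CD45, had 8, 0, 19 and 0 counts in the 4 libraries of the mRNA pair and averaged 309 CPM in EXOmock. The mRNA pair is therefore called epithelial-like and the vesicle pair myeloid-like below. The 16 dendritic cell markers did not single out either pair: they summed to means of 959 to 1080 CPM in the 4 groups, but through different genes. In the mRNA pair most of the sum was Fscn1 (612 CPM in Mock mRNA) and Cd24a (426 CPM), and in the vesicle pair Sirpa (586 CPM in EXOmock), Irf8 (180 CPM) and Cd74 (153 CPM), with Itgax at 12.6 CPM. The subset markers Flt3, Xcr1, Clec9a and Siglech had at most 5 counts in any of the 8 libraries. The macrophage marker Adgre1 averaged 339 CPM in EXOmock and 352 in EXOuniSTING. Cell type, the agent given and the time are bound to the pair, so their parts in a difference of responses cannot be told apart.

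STING is an adaptor on the endoplasmic reticulum that binds the cyclic dinucleotide made by the DNA sensor cGAS and then recruits the kinase TBK1, which activates the transcription factor IRF3 and, through other kinases, NF-kB. IRF3 switches on type I interferon genes. Secreted interferon acts through its receptor and JAK kinases to switch on interferon-stimulated genes, many of which hold an interferon-stimulated response element (ISRE) in their promoters. Extracellular vesicles can carry RNA and proteins from one cell to another, so the vesicle pair reports on a second cell that was given vesicles. Whether uniSTING mRNA or its carrier came over with the vesicles was not tested.

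The ISRE core is shown in 4 promoters of interferon-stimulated genes whose responses differed. Oas1g and Igtp responded more to the mRNA, and Ddx58 and Rsad2 more to the vesicles. All 4 were chosen after their values were seen, and the calls for Igtp and Rsad2 were lost without some single libraries, as described below. Capitals mark every match to the core searched, GAAA and GAAA separated by any 2 bases, or to its reverse complement, TTTC and TTTC separated by any 2 bases, in windows from 150 bases before to 20 bases after the RefSeq transcription start, from RefSeq on GRCm38.p6, a build other than the one used for counting. Oas1g (chromosome 5, 120887594 to 120887763, minus strand) held 2 overlapping matches from position -18 and Igtp (chromosome 11, 58199406 to 58199575, plus strand) held 1 from position -34. Ddx58 (chromosome 4, 40239806 to 40239975, minus strand) held 1 from position 3 and Rsad2 (chromosome 12, 26456433 to 26456602, minus strand) held 1 from position -120, both on the opposite strand.
Oas1g: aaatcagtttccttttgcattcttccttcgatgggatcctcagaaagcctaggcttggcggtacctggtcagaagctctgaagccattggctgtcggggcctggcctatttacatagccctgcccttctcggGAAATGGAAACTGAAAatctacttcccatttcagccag
Igtp: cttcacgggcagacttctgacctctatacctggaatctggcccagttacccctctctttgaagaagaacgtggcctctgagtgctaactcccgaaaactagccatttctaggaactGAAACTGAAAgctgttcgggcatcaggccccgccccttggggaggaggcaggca
Ddx58: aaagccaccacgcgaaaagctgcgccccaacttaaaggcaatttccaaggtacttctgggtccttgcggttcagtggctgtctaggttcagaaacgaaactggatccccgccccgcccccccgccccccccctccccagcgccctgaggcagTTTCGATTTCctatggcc
Rsad2: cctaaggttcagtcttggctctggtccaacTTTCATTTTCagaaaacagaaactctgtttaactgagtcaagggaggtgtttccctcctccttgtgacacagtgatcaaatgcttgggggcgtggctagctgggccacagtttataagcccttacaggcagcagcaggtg
Over the windows of 250 bases before to 50 after the start, this core was present in 3.99% of 27025 genes and in 23 of the 42 interferon-stimulated genes that matched by symbol (54.8%). It was present in 8 of 11 whose difference of responses was higher and in 4 of 14 whose difference was lower. These are matches to letters, not measured binding.

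Library totals ran from 14059040 to 25071840 counts on genes across the 8 libraries. Counts were compared between libraries by edgeR's quasi-likelihood test with Benjamini-Hochberg adjustment at 0.05 over 14863 genes, and a called gene below is one that passed it. The labels do not say that the 2 preparations of a group came from separate cultures, so the p-values cover no more than how these libraries vary, part of which may be technical. Preparation 1 libraries carried transcripts typical of pancreatic islets and lung, such as Ins2 and Sftpc, in all 4 groups. Listed genes of this kind summed to 106 to 223 CPM there, against 0.318 to 16.3 in preparation 2. In the vesicle pair the preparation 2 sums were mostly Cela1 (235 counts in EXOmock and 346 in EXOuniSTING), which both preparations held. Hba-a1, Hbb-bs and H2-Aa also had counts in preparation 1 of all 4 groups and 0 in preparation 2. Of the 8 listed tissue genes measured in both pairs, 0 had a called difference. With the preparation number as a block Ins1, Ins2, Gcg and Iapp had one (log2 differences from 2.83 to 3.61). In bulk RNA, fewer cells of a type and less RNA per cell cannot be told apart.

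The responses differed at 4543 of the 14863 genes tested (30.6%), 2272 higher (15.3%) and 2271 lower (15.3%). Of these genes, 10428 averaged at least 1 CPM in each pair and were measured in both; 2086 of them were higher (20.0%) and 2145 lower (20.6%). Few of these differences were large: 100 of the higher (0.959%) and 80 of the lower genes (0.767%) reached 2-fold in size. Outside this set the test had little to work on. There were 83 calls among 1386 genes measured only in the epithelial-like pair, and 135 among 1410 measured only in the myeloid-like pair. The shares of 20.0% higher and 20.6% lower are those to set beside every count of differences in a gene list below.

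The mRNA response was the broader of the 2. In genes measured in both pairs it had 2781 higher (26.7%) and 2772 lower (26.6%), against 1053 (10.1%) and 1092 (10.5%) in the vesicle response. Over all genes tested the vesicle response had 1183 higher (7.96%) and 1210 lower (8.14%). The median size of a log2 fold change was 0.204 for the mRNA and 0.106 for the vesicles, and the 90th percentile 0.562 against 0.319. Gene by gene the responses were weakly related: Pearson's r was 0.188 and Spearman's rho 0.153 across the 10428 genes, given as a description because genes share libraries and are not independent, and 5736 had the same sign (55%). Among the 1425 genes called in both responses, 959 had the same sign (67.3%) and r was 0.492. By calls, 416 genes were higher in both (3.99%), 543 lower in both (5.21%), 240 higher with the mRNA and lower with the vesicles (2.30%), and 226 the reverse (2.17%). These counts fell by over 1.5 times without a vesicle library: without EXOuniSTING preparation 2 to 221 higher in both, 139 and 118, without EXOmock preparation 2 to 252, 342 lower in both, 136 and 143, without EXOmock preparation 1 to 259, 136 and 132, and without EXOuniSTING preparation 1 to 134 and 139.

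**Figure D1:**
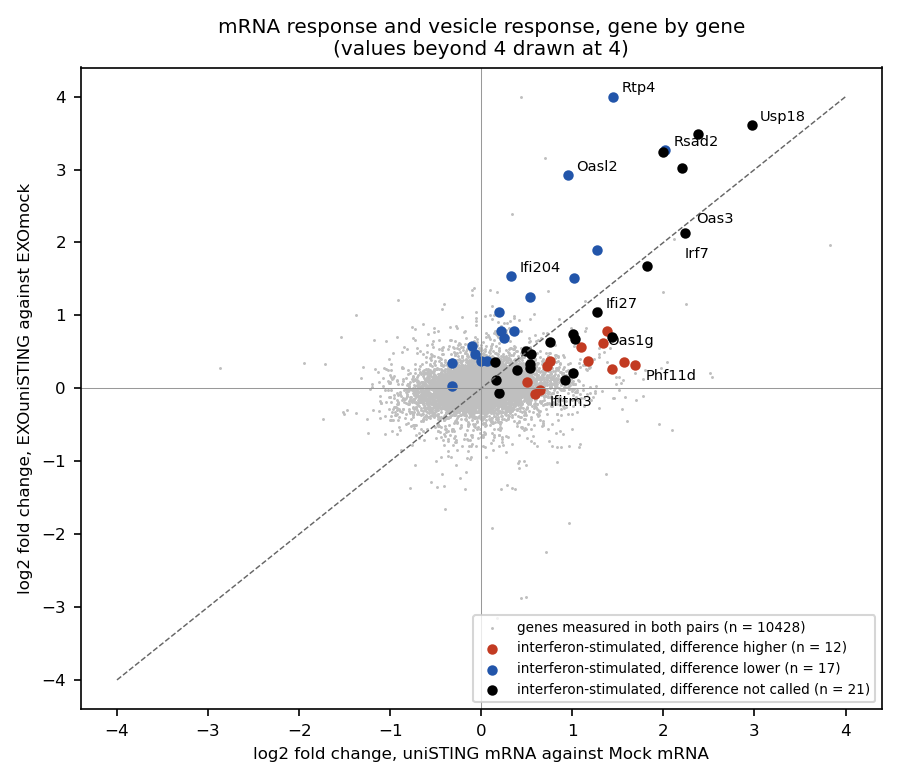
Log2 fold change of uniSTING mRNA against Mock mRNA (x) and of EXOuniSTING against EXOmock (y) for the 10428 genes measured in both pairs, with 50 interferon-stimulated genes coloured by whether their difference of responses was called. The dashed line marks equal responses, and most interferon-stimulated genes lie above 0 on both axes, on either side of that line.

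Interferon-stimulated genes rose in both pairs. These encode the antiviral effectors that interferon switches on, and 50 of 64 listed were measured in both pairs. With the mRNA 41 rose and 2 fell, with the vesicles 36 rose and 0 fell, and 30 rose in both. Among all genes 26.7% rose and 26.6% fell with the mRNA, 10.1% and 10.5% with the vesicles, and 3.99% rose in both. In 7 of the 50 a group averaged under 1 CPM, so these reached the 1 CPM mean through the other group of that pair. Their change in that pair was thus partly fixed in advance. The median log2 fold change of the 50 was 0.75 and 0.57, against 0.00 for all genes in either response. The differences of responses were split, with 12 higher, 17 lower and 21 not called. Among all genes measured in both pairs 20.0% were higher and 20.6% lower. The median difference was 0.09 against 0.00 for all genes. The 12 higher became 6 without EXOmock preparation 2 and 7 without uniSTING preparation 1. The sum of the 50 genes was 1007 and 1012 CPM in Mock mRNA, 1387 and 1358 in uniSTING mRNA, 1437 and 1456 in EXOmock, and 1839 and 1862 in EXOuniSTING. In each pair the treated libraries stood above both controls, and the sum started from a higher level in the myeloid-like pair. Single genes went either way. Ifitm3 averaged 85.6 CPM in Mock mRNA and 325 in EXOmock, but Oasl2 12.8 and 1.12. For reference, the uniSTING mRNA pair labelled 4T1, whose markers are myeloid too, had 10 of these 50 higher (all genes, 16.1%) and 4 lower (20.0%).

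Several effectors had a large response in both pairs and no called difference. Irf7, the factor that amplifies interferon production (chromosome 7, 140842619 to 140846394, GRCm39), read 1.6 and 2.41 CPM in Mock mRNA and 9.66 and 7.94 in uniSTING mRNA. In the vesicle pair it read 5.12 and 4.71 CPM in EXOmock and 20.5 and 20.1 in EXOuniSTING. Both treated groups lay clear of their controls, and the log2 fold changes were 2.12 ± 0.17 (SE) and 2.05 ± 0.15, a difference of 0.07 ± 0.23 (adjusted p = 0.94). Oas3, a sensor of double-stranded RNA, rose from 0.857 and 1.18 to 4.03 and 5.50 CPM with the mRNA and from 10.0 and 8.29 to 39.4 and 39.9 with the vesicles (log2 fold changes 2.24 and 2.13). Its control level was higher in the myeloid-like cells, and no difference in the change was called (0.11 ± 0.25, adjusted p = 0.819). Usp18, the protease that removes ISG15 and restrains interferon signalling, had log2 fold changes of 2.97 and 3.61 (difference -0.64 ± 0.60, adjusted p = 0.482), and Ifit1, which binds foreign RNA ends, 2.20 and 3.02 (difference -0.82 ± 0.32, adjusted p = 0.0739, and -1.03 with adjusted p = 0.0402 without Mock preparation 2). Ifi27 rose in both, by 1.27 and 1.04, with a difference of 0.22 ± 0.10 (adjusted p = 0.102) that was called without Mock preparation 2 (0.387, adjusted p = 0.01). Ifit1 averaged 0.775 CPM in EXOmock and reached the 1 CPM mean through EXOuniSTING, so its rise with the vesicles was partly fixed in advance. A difference that missed the threshold does not show equal responses. The standard errors of these genes leave room for differences of the size called elsewhere in the list.

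A second set of effectors responded more to the vesicles. Oasl2, an OAS-like protein of antiviral defence (chromosome 5, 115034997 to 115050295, GRCm39), read 11.9 and 13.6 CPM in Mock mRNA and 24.5 and 24.4 in uniSTING mRNA, and 1.07 and 1.18 in EXOmock against 9.31 and 7.91 in EXOuniSTING. It rose in both, by 0.95 and 2.92 on the log2 scale, and the difference was -1.96 ± 0.21 (adjusted p = 8.75e-06). Rsad2, which encodes viperin, went from 1.54 and 1.5 to 5.73 and 6.42 CPM with the mRNA and from 0.925 and 0.695 to 7.03 and 8.38 with the vesicles (difference -1.25 ± 0.33, adjusted p = 0.0105). Its call was lost without EXOmock preparation 2 (-1.04, adjusted p = 0.0706). Rtp4 had 133 and 120 counts in Mock mRNA, 309 and 465 in uniSTING mRNA, 0 and 0 in EXOmock, and 58 and 81 in EXOuniSTING. Against a floor of 3 counts over the EXOmock group it was at least 42-fold higher with the vesicles, beside a log2 fold change of 1.45 with the mRNA. Its fitted difference rests on the zeros and is not given as a size. Rsad2 and Rtp4 averaged under 1 CPM in EXOmock and reached the 1 CPM mean through EXOuniSTING. Their rise with the vesicles was thus partly fixed in advance. Ifi204, of the IFI200 family of DNA-binding sensors, rose by 1.54 with the vesicles and by 0.33 with the mRNA (difference -1.21 ± 0.18, adjusted p = 1.55e-04); the mRNA call was lost without Mock preparation 2 (0.31) or uniSTING preparation 1 (0.29). Ifit2 (difference -0.84 ± 0.16) and Ddx58, the RNA sensor RIG-I whose promoter is shown above (difference -0.71 ± 0.15), were lower too. Ddx58 went from 34.7 and 31.0 to 47.9 and 46.1 CPM with the mRNA. With the vesicles it went from 6.54 and 7.75 to 16.1 and 18. For Oasl2, Rsad2, Rtp4, Ifi204 and Ddx58 the control level was lower in the myeloid-like cells. Isg15, the ubiquitin-like modifier, rose by 1.27 and 1.89; its difference of -0.61 ± 0.22 (adjusted p = 0.0463) lost its call in 7 of the 8 fits that left out a library, all but the fit without Mock preparation 1, with values from -0.80 to -0.48 over the 8 fits, and with the preparation number as a block (adjusted p = 0.0621).

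A further set responded more to the mRNA. Ifitm3, which blocks viral entry at membranes (chromosome 7, 140589499 to 140590683, GRCm39), read 89.1 and 82.0 CPM in Mock mRNA and 128 and 133 in uniSTING mRNA, and 326 and 325 in EXOmock against 315 and 324 in EXOuniSTING. It rose by 0.64 with the mRNA, and the vesicle value was -0.02 (difference 0.66 ± 0.05, adjusted p = 3.01e-07). Phf11d went from 2.17 and 2.90 to 7.80 and 8.58 CPM with the mRNA and from 11 and 11.9 to 13.9 and 14.7 with the vesicles (difference 1.38 ± 0.19, adjusted p = 8.31e-05). Oas1g, one of several close Oas1 copies, went from 2.06 and 1.54 to 5.57 and 4.91 CPM with the mRNA and from 24.6 and 25.1 to 31.0 and 32.9 with the vesicles (difference 1.21 ± 0.19, adjusted p = 2.16e-04). In all 3 the control level was higher in the myeloid-like cells. Igtp, an interferon-induced GTPase, had a difference of 1.17 ± 0.35 (adjusted p = 0.0199); the call was lost without EXOmock preparation 2, EXOuniSTING preparation 1, Mock preparation 2 or uniSTING preparation 1, and the value ran from 0.80 to 1.42 over the 8 such fits. Counting kept uniquely mapped reads, so levels of close copies such as the Oas1, Ifit, Ifitm and IFI200 genes are uncertain, and 40.9% of the exonic length of Ifitm2 overlaps another gene.

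**Figure D2:**
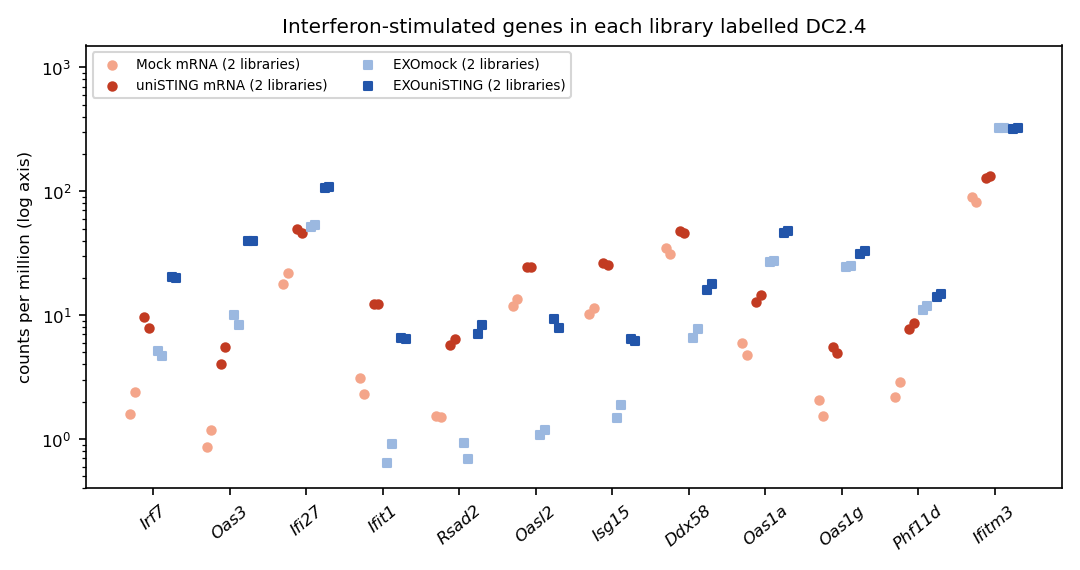
CPM (log axis) of 12 interferon-stimulated genes in each of the 8 libraries, 2 points per group. Irf7, Oas3 and Ifi27 step up by a like distance in both pairs, Rsad2, Oasl2 and Isg15 by more in the vesicle pair, and Oas1g, Phf11d and Ifitm3 by more in the mRNA pair.

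Upstream of these effectors most genes had no called difference of responses, and nor had 6197 of all 10428 genes measured in both pairs. Of those 10428 genes 20.0% were higher and 20.6% lower. Of 18 STING pathway genes measured in both pairs, 1 difference was higher and 6 were lower (median -0.07; 2 higher without EXOuniSTING preparation 2 or uniSTING preparation 2), Ifi204 of the paragraphs above among the 6, and of 20 interferon receptor, JAK, STAT and IRF genes 0 were higher and 5 lower. Tmem173, the gene for STING itself, read 19.9 and 19.5 CPM in Mock mRNA, 21.6 and 19.9 in uniSTING mRNA, 38.9 and 44.9 in EXOmock and 47.2 and 49.0 in EXOuniSTING, with a difference of -0.10 ± 0.12 (adjusted p = 0.561). Whether reads of the uniSTING mRNA fall on this gene was not tested, since its sequence was not used here. The kinase Tbk1 and the factor Irf3 had differences of 0.03 ± 0.08 and 0.20 ± 0.10 (adjusted p = 0.828 and 0.125). Traf3, an adaptor that links pattern sensors to TBK1, fell by 0.38 with the mRNA and stood at 0.03 with the vesicles (difference -0.41 ± 0.06, adjusted p = 1.56e-04). Ap1s1, an adaptor protein complex subunit that sorts STING in transport, rose by 0.40 with the mRNA and stood at 0.02 with the vesicles (difference 0.39 ± 0.04). Among signalling genes Tyk2, a kinase of the interferon receptor, had a difference of -0.48 ± 0.10 (adjusted p = 0.00299). Irf9 rose in both, by 1.13 and 0.78; its difference of 0.35 ± 0.15 (adjusted p = 0.106) was called without EXOuniSTING preparation 2 (0.48, adjusted p = 0.0421). Ifnb1, the interferon-beta gene, had 3 and 0 counts in Mock mRNA, 4 and 8 in uniSTING mRNA, 0 and 0 in EXOmock, and 0 and 2 in EXOuniSTING, too few to test, and none of the 20 interferon genes listed had enough counts.

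Of 22 MHC class I presentation genes, 10 rose with the mRNA (all genes, 26.7%), 9 with the vesicles (10.1%) and 8 in both (3.99%). Of their differences 6 were higher and 3 lower, beside 20.0% and 20.6% of all genes. The counts were 6 and 6 with the trend on gene length (described below) removed, and 5 were lower with DESeq2's size factors. H2-K1, a class I heavy chain, went from 139 and 136 to 184 and 180 CPM with the mRNA and from 540 and 538 to 612 and 616 with the vesicles, with a difference of 0.24 ± 0.03 (adjusted p = 5.27e-05). Tapbp, the tapasin chaperone of peptide loading, stood at 0.06 with the mRNA and rose by 0.46 with the vesicles (difference -0.41 ± 0.07), with 29.0% of its exonic length shared with another gene. Cd74, the invariant chain of class II molecules, rose by 0.83 with the mRNA from 11.9 and 10.6 to 22.2 and 17.4 CPM, and stood at 0.09 with the vesicles at 155 and 152 against 163 and 163 CPM (difference 0.74 ± 0.13, adjusted p = 4.89e-04).

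NF-kB targets and inflammatory genes did not share one direction. Of 26 NF-kB target and feedback genes, 4 differences were higher and 9 lower (median -0.00), beside 20.0% and 20.6% of all genes. Ier3, an early survival gene (chromosome 17, 36132576 to 36133815, GRCm39), read 85.8 and 86.5 CPM in Mock mRNA and 166 and 163 in uniSTING mRNA, and 95.2 and 95.3 in EXOmock against 74.2 and 75.2 in EXOuniSTING. It rose by 0.95 with the mRNA and fell by 0.35 with the vesicles, a difference of 1.30 ± 0.05 (adjusted p = 1.03e-09), although the control levels lay close together. Nfkbia, the inhibitor that shuts the pathway off, rose by 0.48 with the mRNA and stood at 0.06 with the vesicles (difference 0.43 ± 0.09, adjusted p = 0.00187). In the other direction Gadd45b, a stress response gene, stood at -0.05 and rose by 0.63 with the vesicles (difference -0.68 ± 0.08), and Csf1, the macrophage growth factor, fell by 0.61 with the mRNA and stood at -0.06 (difference -0.55 ± 0.04). Ccl5, a chemokine for T cells, rose with both: 81 and 112 counts went to 161 and 176 with the mRNA, and 5 and 2 counts to 25 and 47 with the vesicles. Its log2 fold changes were 0.69 and 3.15 (difference -2.46 ± 0.50, adjusted p = 0.00188); the mRNA call was lost without any 1 of the 4 mRNA libraries (0.55 to 0.84). Cxcl10, an interferon-induced chemokine, rose by 2.38 and 3.49, with a difference of -1.11 ± 0.79 (adjusted p = 0.334) that rests on EXOmock: without its preparation 1 the remaining EXOmock library has 0 counts and the call is made (adjusted p = 0.00345). Ccl5 and Cxcl10 averaged 0.231 and 0.249 CPM in EXOmock and reached the 1 CPM mean through EXOuniSTING (1.94 and 2.5 CPM). Their rise with the vesicles was thus partly fixed in advance. Ccl2, the monocyte chemokine, read 3.37 and 2.68 CPM in Mock mRNA and 3.93 and 4.19 in uniSTING mRNA. It fell with the vesicles from 120 and 121 to 96.3 and 91.9 (difference 0.83 ± 0.15, adjusted p = 6.16e-04). The call of its mRNA rise of 0.47 was lost without Mock preparation 2 (0.29) or uniSTING preparation 2 (0.42). Tnf had 3 and 2 counts in Mock mRNA, 14 and 11 in uniSTING mRNA, and 595 and 804 in EXOmock against 501 and 776 in EXOuniSTING, with a difference of 2.42 ± 0.48 (adjusted p = 0.00153) that rests on those few counts.

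Of the 9 scavenger, endocytic and Toll-like receptor genes measured in both pairs, 3 differences were higher, 1 was lower and 5 were not called. Their median was -0.04. Among all genes measured in both pairs 20.0% were higher and 20.6% lower. Tlr4, the endotoxin receptor, rose by 0.50 with the mRNA from 21.7 and 19.8 to 29.5 and 28.4 CPM, and fell by 0.27 with the vesicles from 124 and 119 to 102.6 and 98.5 (difference 0.78 ± 0.08, adjusted p = 5.24e-06). Cd14, its co-receptor, fell by 0.39 with the vesicles from 354 and 350 to 268 and 270 CPM (difference 0.73 ± 0.13). Its mRNA value of 0.34 was called, and the call was lost without Mock preparation 1 (0.15), uniSTING preparation 1 (0.35) or uniSTING preparation 2 (0.33). Scarb1, a scavenger receptor for lipoproteins, was the lower one: it stood at 0.05 with the mRNA and rose by 0.34 with the vesicles (difference -0.28 ± 0.05).

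Glycolysis and hypoxia genes separated the responses. Of 30 glycolysis and hypoxia genes, 24 differences were higher (all genes, 20.0%) and 0 lower (20.6%), with a median of 0.45. With the mRNA 26 rose (all genes, 26.7%) and 1 fell (26.6%), while with the vesicles 7 rose (10.1%) and 3 fell (10.5%). Eno2, a glycolytic enolase outside the list of 30 (chromosome 6, 124737016 to 124746636, GRCm39), read 2.51 and 2.72 CPM in Mock mRNA and 8.49 and 9.25 in uniSTING mRNA, and 15.9 and 15.4 in EXOmock against 14.8 and 14.3 in EXOuniSTING. Its difference of 1.88 ± 0.15 (adjusted p = 4.36e-07) was 1 of 4 in the whole table still called when the test asked for more than 2-fold. Bnip3, a hypoxia-induced mitophagy receptor, went from 42.9 and 38.6 to 116 and 108 CPM with the mRNA and from 49.1 and 44.9 to 51.6 and 52.8 with the vesicles (difference 1.32 ± 0.09), with 22.3% of its exonic length shared. Ndrg1, a stress gene induced by low oxygen, rose by 0.96 with the mRNA, from 219 and 215 to 414 and 418 CPM, and stood at 0.06 with the vesicles. Ldha, lactate dehydrogenase, rose by 0.60 and fell by 0.10 (difference 0.70 ± 0.02, adjusted p = 1.81e-10). Pgk1 rose in both, by 0.61 and 0.15.

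Of 30 cholesterol and fatty acid synthesis genes 20 differences were higher and 7 lower (median 0.26). Shares among all genes, to set beside each list here, were 20.0% higher and 20.6% lower. Mvd, an enzyme of the mevalonate pathway, went from 48.3 and 49.7 to 95.9 and 96.6 CPM with the mRNA and from 61.4 and 62.8 to 63.6 and 68.1 with the vesicles (difference 0.90 ± 0.06). Fasn, fatty acid synthase, fell in both, by 0.99 and 0.43, from 983 and 980 to 480 and 492 CPM and from 187 and 190 to 142 and 138 (difference -0.56 ± 0.04). Of 21 NRF2 target and iron genes 9 differences were higher and 4 lower (median 0.07), and 2 lower without EXOmock preparation 1, EXOuniSTING preparation 1, Mock preparation 2 or uniSTING preparation 1. Tfrc, the transferrin receptor, rose by 0.60 with the mRNA and fell by 0.14 with the vesicles (difference 0.74 ± 0.04); the vesicle call was lost without EXOmock preparation 1 (-0.13) or EXOuniSTING preparation 1 (-0.13). Of 28 genes of endoplasmic reticulum stress and the integrated stress response, 10 differences were higher and 13 lower (median -0.10). Hspa5, the chaperone BiP, rose by 0.19 and fell by 0.14, and Slc7a5, an amino acid transporter, fell in both, by 0.72 and 0.26.

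Genes of translation and respiration were higher in the difference, and mitochondrially encoded mRNAs lower. All but 4 of 39 cytosolic ribosomal protein genes had a higher difference (35 higher, 0 lower, median 0.26). Of the 39, 36 rose with the mRNA (all genes, 26.7%) and 7 with the vesicles (10.1%). Rps23 read 514 and 503 CPM in Mock mRNA, 770 and 801 in uniSTING mRNA, 1059 and 1049 in EXOmock and 1110 and 1113 in EXOuniSTING, a difference of 0.57 ± 0.03. Of 25 nuclear oxidative phosphorylation genes 13 were higher and 1 lower (median 0.15); the lower count was 2 without EXOmock preparation 2 and 0 without Mock preparation 2. Of 12 mitochondrially encoded mRNAs 0 were higher and 9 lower (median -0.26). mt-Co1, a subunit of cytochrome oxidase, fell by 0.07 with the mRNA and rose by 0.19 with the vesicles, from 10880 and 10830 to 12460 and 12340 CPM (difference -0.26 ± 0.01).

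**Figure D3:**
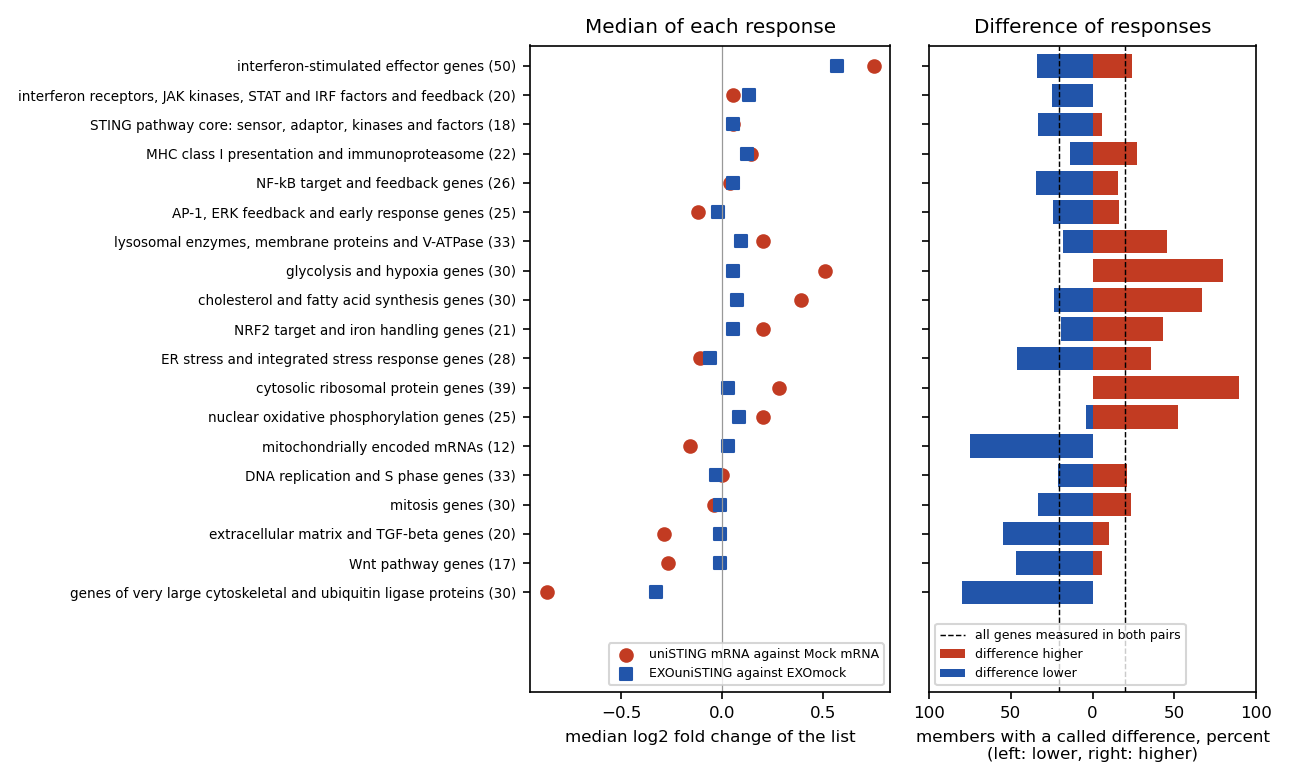
Left, the median log2 fold change of each gene group in the mRNA response (circles) and the vesicle response (squares), with the number of members measured in both pairs in brackets. Right, the percent of those members whose difference of responses was called higher (right of 0) or lower (left of 0), with dashed lines at the share among all genes measured in both pairs; glycolysis and ribosomal protein genes lie far to the right and genes of very large proteins far to the left.

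Of 33 genes for lysosomal enzymes, membrane proteins and the V-ATPase, 22 rose with the mRNA (all genes, 26.7%) and 17 with the vesicles (10.1%). Of the 33 genes, 11 rose in both (3.99%). Of the 33 differences 15 were higher and 6 lower (median 0.09), beside 20.0% and 20.6% of all genes. Ctsl, the protease cathepsin L, read 770 and 777 CPM in Mock mRNA and 1038 and 1021 in uniSTING mRNA. It read 2936 and 2899 CPM in EXOmock and 2883 and 2919 in EXOuniSTING (difference 0.44 ± 0.02). Of its exonic length 26.8% is shared with another gene. Sqstm1, the autophagy receptor p62, rose by 0.24 with the mRNA and fell by 0.10 with the vesicles. Of 19 extracellular vesicle tetraspanin and biogenesis genes, 6 differences were higher, 1 was lower and 12 were not called (median 0.03). Among all genes 20.0% were higher and 20.6% lower. Cd9, a tetraspanin abundant on extracellular vesicles, rose by 0.25 with the mRNA from 302 and 292 to 345 and 353 CPM, and fell by 0.19 with the vesicles from 911 and 899 to 799 and 786 (difference 0.44 ± 0.03, adjusted p = 1.3e-07).

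Genes of very large proteins fell in both pairs and fell more with the mRNA. Of 30 genes for very large cytoskeletal proteins and ubiquitin ligases, 29 fell with the mRNA (all genes, 26.6%) and 23 with the vesicles (10.5%). All 23 fell in both (all genes, 5.21%), and 24 differences were lower and 0 higher (median -0.57). Plec, the cytolinker plectin (chromosome 15, 76055174 to 76116774, GRCm39), read 293 and 293 CPM in Mock mRNA and 104 and 98.1 in uniSTING mRNA, and 207 and 206 in EXOmock against 165 and 165 in EXOuniSTING. It fell by 1.52 and 0.32, a difference of -1.20 ± 0.04 (adjusted p = 5.97e-10). Lrp1, a large endocytic receptor, went from 87.4 and 87.1 to 32.9 and 29.6 CPM with the mRNA and from 463 and 472 to 382 and 379 with the vesicles (difference -1.18 ± 0.05). Dync1h1, the dynein heavy chain, had a difference of -1.04 ± 0.04, and Mdn1, a giant ribosome-assembly ATPase outside the list, fell in both, by 0.88 and 0.85 (difference -0.03 ± 0.06, adjusted p = 0.804). In the uniSTING mRNA pair labelled 4T1, 19 of the 30 listed genes rose (all genes, 16.1%) and 3 fell (20.0%).

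Gene length moved with the difference of responses across the whole table. In the shortest of 10 equal groups of genes, with a median exonic length of 0.871 kb, the median difference was 0.28, and it went down group by group to -0.20 in the longest, at 12.5 kb. The mRNA response carried the gradient, with medians from 0.27 to -0.25, against 0.02 to -0.06 in the vesicle response. Ribosomal protein genes are short (median 1.83 kb) and the large-protein genes long (17.3 kb). With the trend on length removed from both responses, ribosomal protein genes had 26 higher and 4 lower, oxidative phosphorylation genes 9 and 5 with a median of 0.06, and large-protein genes 1 and 18 with a median of -0.35. Glycolysis and hypoxia genes (4.21 kb) stayed at 24 higher and 0 lower, and interferon-stimulated genes (3.82 kb) at 9 and 16. The difference for Mdn1 turned to 0.26 (adjusted p = 0.00473). The part of RNA integrity or library preparation in this gradient was not tested.

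**Figure D4:**
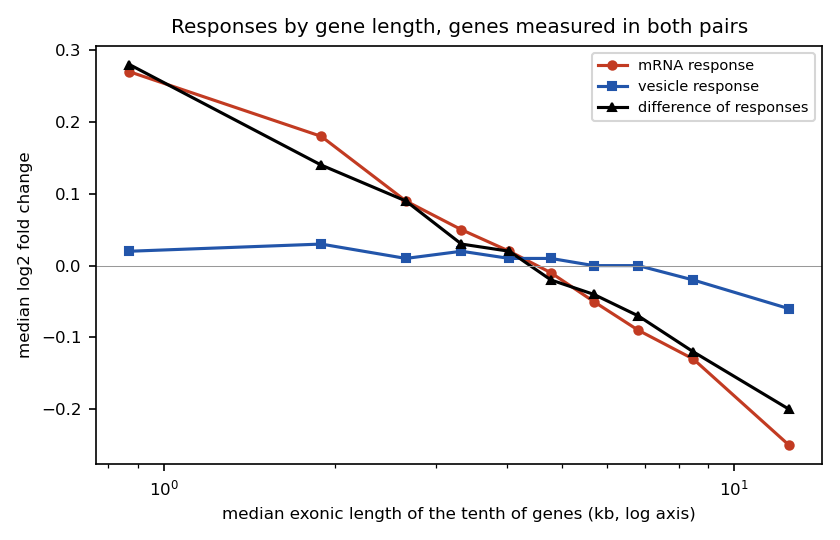
Median log2 fold change in each of 10 equal groups of the 10428 genes ordered by exonic length (x, kb, log axis) for the mRNA response, the vesicle response and their difference. The difference follows the mRNA response down from 0.28 to -0.20, while the vesicle response stays within 0.03 and -0.06.

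Of 20 extracellular matrix and TGF-beta genes measured in both pairs, 2 differences were higher and 11 lower (median -0.41; 1 higher without either EXOuniSTING or uniSTING preparation, EXOmock preparation 2 or Mock preparation 2, and with the preparation number as a block), and of 17 Wnt pathway genes 1 was higher and 8 lower (median -0.31). With the trend on length removed, 10 matrix and 6 Wnt genes were lower. Lamc1, a laminin chain, fell by 0.74 with the mRNA, from 295 and 292 to 171 and 175 CPM, and stood at -0.04 with the vesicles. Lrp5, a Wnt co-receptor, fell by 0.35 with the mRNA and rose by 0.24 with the vesicles (difference -0.59 ± 0.05), as did Fzd7, a Wnt receptor (-0.21 and 0.31). Id3, a helix-loop-helix inhibitor of differentiation and a known target of BMP signalling (chromosome 4, 135870808 to 135873066, GRCm39), rose in both pairs and far more with the vesicles. It read 52.2 and 51.1 CPM in Mock mRNA, 64.6 and 64.3 in uniSTING mRNA, 1.78 and 1.71 in EXOmock, and 9.31 and 9.04 in EXOuniSTING. Its log2 fold changes were 0.34 and 2.39, a difference of -2.05 ± 0.14 (adjusted p = 1.37e-07), which also passed the test for more than 2-fold.

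Proliferation genes had calls in both directions, as had all genes measured in both pairs (20.0% higher and 20.6% lower). Of 33 DNA replication genes 7 differences were higher and 7 lower, and of 30 mitosis genes 7 were higher and 10 lower; the 7 higher replication genes became 2 without Mock preparation 1, 3 without EXOmock preparation 2 or EXOuniSTING preparation 1, and 4 without EXOmock preparation 1 or uniSTING preparation 1, and the 7 higher mitosis genes became 4 without EXOuniSTING preparation 2 or Mock preparation 2 or in the 8 libraries alone, and 1 by DESeq2. The 10 lower mitosis genes became 6 with the trend on length removed. Mki67, the proliferation antigen, fell in both, by 0.93 and 0.22, from 307 and 300 to 152 and 162 CPM and from 140 and 133 to 114 and 118 (difference -0.70 ± 0.05). Foxm1, the factor that drives mitotic genes, fell by 0.33 with the mRNA and rose by 0.22 with the vesicles (difference -0.54 ± 0.05).

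Mmp9 and Prkdc were among the 543 genes lower in both. Mmp9, a secreted gelatinase, fell from 212 and 208 to 98.7 and 100.3 CPM with the mRNA and from 14.9 and 14.3 to 9.51 and 9.33 with the vesicles. The log2 fold changes were -1.06 and -0.63, a difference of -0.43 ± 0.11 (adjusted p = 0.00788). Prkdc, the catalytic subunit of DNA-dependent protein kinase, fell by 0.69 and 0.62, from 22.2 and 19.4 to 12.7 and 12.7 CPM and from 49.4 and 47.0 to 30.5 and 32.0 (difference -0.07 ± 0.10, adjusted p = 0.703).

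Opposite calls in the 2 responses were found for 466 genes, and 12 are named here, the 6 in each direction whose weaker response was largest among genes of at least 5 CPM in each pair. Hilpda, a lipid droplet protein induced by low oxygen (chromosome 6, 29272487 to 29275445, GRCm39), rose from 10.4 and 11.3 to 16.8 and 15.6 CPM with the mRNA and fell from 114 and 107 to 76.2 and 79.3 with the vesicles, a difference of 1.08 ± 0.09 (adjusted p = 1.38e-06). Scai, Cp (ceruloplasmin, the copper-carrying ferroxidase), Btg3 (an antiproliferative factor), the noncoding RNA Snhg20 and Crem (a cAMP-responsive factor) also rose with the mRNA and fell with the vesicles, with differences from 0.78 to 1.00. In the reverse direction Unc5b, a netrin receptor, fell from 256 and 253 to 161 and 171 CPM with the mRNA and rose from 4.77 and 5.29 to 7.77 and 6.69 with the vesicles (difference -1.09 ± 0.15). Crocc, a ciliary rootlet protein, Rnf157, Pwwp2b, Gdpd5 and Jrkl behaved alike, with differences from -1.18 to -0.75. The differences of all 12 were called in every fit that left out a library, but the call of a single response was not for 6 of them. The vesicle call was lost without any 1 of the 4 vesicle libraries for Unc5b (0.40 to 0.61), Btg3 (-0.47 to -0.37) and Jrkl (0.29 to 0.43). It was lost without EXOmock preparation 2 for Scai (-0.40) and Cp (-0.35), without EXOuniSTING preparation 2 for Cp (-0.35), and without EXOmock preparation 1 (-0.30) or EXOuniSTING preparation 1 (-0.40) or 2 (-0.36) for Crem, whose mRNA call was lost without Mock preparation 1 (0.36) or uniSTING preparation 1 (0.28).

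**Figure D5:**
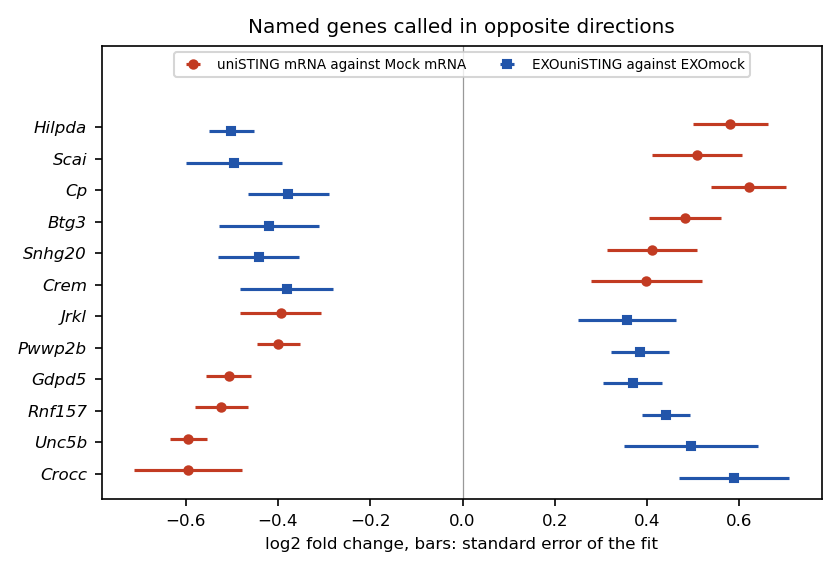
Log2 fold changes of the 12 named genes called in opposite directions, mRNA response (circles) and vesicle response (squares), with the standard error of the fit as bars. For 6 genes the mRNA value lies right of 0 and the vesicle value left of it, and for the other 6 the order is reversed.

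Some genes averaged under 1 CPM in 1 of the pairs. Hspg2, the basement membrane proteoglycan perlecan, fell from 252 and 268 to 92.7 and 94.3 CPM with the mRNA and had 5, 1, 5 and 1 counts in the 4 vesicle libraries. Adm, adrenomedullin, rose from 47 and 41 to 135 and 244 counts with the mRNA, with at most 2 counts in a vesicle library. In the myeloid-like pair Ccl6, a macrophage chemokine, fell from 144 and 137 to 60.6 and 62.0 CPM, and F5, coagulation factor V, from 23.7 and 25.7 to 11.5 and 11.9 CPM, with F5 at 0 in the 4 mRNA libraries. Oas2 had 0 and 0 counts in Mock mRNA, 16 and 19 in uniSTING mRNA, 19 and 24 in EXOmock, and 160 and 237 in EXOuniSTING. It was at least 10.5-fold higher with the mRNA, against the same floor of 3 counts, and its log2 fold change with the vesicles was 3.05 ± 0.20, so it rose in both pairs. Its difference was called (adjusted p = 0.0312), but not without Mock preparation 1 or 2 (adjusted p up to 0.183), and its size rests on the zeros. Ifi207, an IFI200 family gene, rose by 1.11 with the vesicles from 8.46 and 8.08 to 17.7 and 18 CPM and was under 1 CPM in all 4 mRNA libraries.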

How the data were processed

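Gene counts were made by the authors with featureCounts (Subread 2.0.1), paired reads on exons, from uniquely mapped reads with no strand option, per the file headers; HISAT2 and GRCm39 are named in the submitters' processing notes. Without strand, overlapping genes cannot be told apart, and exonic overlap is given where a named gene has much of it. The deposited raw counts of 53647 genes were analysed in edgeR 4.0.16 (R 4.3.3): filterByExpr by group, TMM factors, 1 mean per group over all 12 libraries, quasi-likelihood test, Benjamini-Hochberg adjustment at 0.05 over the 14863 genes left. Standard errors are those of the fit. CPM are counts scaled by the total of a library. Alternatives used DESeq2 1.42.0 and limma 3.58.1 (voom), other scalings and filters, 8 libraries only, a 2-fold minimum, the length trend removed, and leaving out each library. The members and gene lists were chosen with earlier results of these data known, so list counts describe and do not test. Named genes followed a rule on rank of difference, opposite or shared calls, expression in 1 pair, list membership and a set of fixed genes; for lists, up to 4 members with the smallest adjusted p. Rsad2, Igtp, Ifit2, Ddx58, Oas1g, Oas3, Usp18, Ifitm2 and the marker genes fall outside it and were chosen after their values were seen. The scripts were tested on simulated data. The share of false calls there depended on the random seed and was not always under 0.05.

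The replicate number is a preparation number in the labels, and islet and lung transcripts were in preparation 1 of every group. Over 7811 genes, however, deviations of same-numbered libraries correlated only between -0.0736 and 0.0804, so the number was used as a block in an alternative. Counting error is larger in genes with few counts, whose intervals are wide.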

Additional observations from a re-analysis of the deposited data

Results flagged for a closer look

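As a condition of choice, the 12 named genes had opposite calls in the 2 responses and a called difference between the mRNA and vesicle responses. On the log2 scale this difference was 1.08 for Hilpda, 1.00 for Scai, 1.00 for Cp, 0.90 for Btg3, 0.85 for Snhg20 and 0.78 for Crem, each higher with the mRNA and lower with the vesicles. It was -1.18 for Crocc, -1.09 for Unc5b, -0.96 for Rnf157, -0.88 for Gdpd5, -0.78 for Pwwp2b and -0.75 for Jrkl, each lower with the mRNA and higher with the vesicles. For Unc5b, Btg3, Jrkl, Scai, Cp and Crem the call of a single response was lost in some fits that left out a library.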

How the results depend on the processing

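Counts of called genes were within 1.5 times of those reported under other scalings, filters, limma-voom, the 8 libraries alone and the length trend removed (counts over all genes tested). With a 2-fold minimum the difference of responses had 2 genes higher and 2 lower (Eno2, Ier3, Id3, Rtp4), the mRNA response 12 and 8, and the vesicle response 12 and 1; this test asks for a larger change by construction. DESeq2 called 745 genes lower with the vesicles, where edgeR called 1210; the cause was not tested. Leaving out 1 library gave 1823 to 1984 higher and 1901 to 2032 lower differences, and 598 to 1160 higher and 705 to 1178 lower with the vesicles; for the vesicle counts the lowest values came without EXOuniSTING preparation 2, which leaves 1 sample in a group assumed to vary like the others. Opposite calls numbered 240 and 226, but 118 and 160 by DESeq2, 159 and 200 in the 8 libraries alone, and 134 to 213 and 118 to 200 without 1 library. With the length trend removed the difference for Mdn1 turned from -0.03 to 0.262 and the mRNA response of H1f0 from 0.10 to -0.043. A replicate block gave 4534 differences, 4371 of them among the 4543. Preparation as a block ended the call for the difference of Isg15 and for no other gene whose call is printed above, and made calls for islet transcripts. With 2 libraries per group, genes with few counts allow only large differences to be called.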
